A study of Mus musculus with 10 samples.

Results

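A stretch of 18 Mb on distal mouse chromosome 5 (mm9) was examined probe by probe in liver DNA of 10 mice. All array probes that start in it were taken, the first at 115006771 and the last at 132993240, which gave 1474 of 170305 probes. Of the latter, 161460 lie on autosomes. The stretch was chosen by the log2 ratios of these same animals. Probes that differed between the groups had been found there beside neighbours that did not, so differences between the groups are described here and not tested. The question was whether isolated probes that vary between animals sort the animals alike along the stretch, as a linked haplotype would.

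The 5 ICSI-derived mice were ZFLacZ progeny made by intracytoplasmic injection of sperm from testis cells frozen for 14 years, and the oocytes came from DBA x C57BL/6 females. The 5 naturally born mice, called natural below, were wild-type ZFLacZ progeny whose cross is not given in the labels. ZFLacZ is a transgenic line that goes back to SJL x C57BL/6, so the ICSI-derived animals can carry DBA alleles from the oocyte. Since the natural animals' cross is not given, any difference in strain background between the groups cannot be told apart from the use of ICSI. The labels' growth text, shared by all 10 samples, speaks of frozen germ cells for the natural animals too. The groups here follow each sample's own description. Each group had 3 animals labelled male and 2 labelled female. All were adult, and litters are not given. Each animal's DNA was labelled with Cy5 and hybridised on its own array against a Cy3-labelled pool of C57BL/6, SJL and DBA liver DNA. Values are log2 ratios of the animal over the pool, centred on the array's autosomal median, so a value above 0 is more signal than from the pool.

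Comparative genomic hybridisation reads how much labelled DNA binds to a short designed probe. A gained or lost stretch of DNA shifts all probes inside it together. A difference in sequence under a probe, or a deletion smaller than the probe spacing, can shift 1 probe and leave its neighbours where they were. Inbred strains differ at many such sites, and their offspring inherit chromosomes in long blocks, so sites on the same block reach the same animals. An animal can carry an allele on both of its chromosomes, on either of them, or on neither, which gives up to 3 levels at a site.

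The arrays differed in noise, and 1 array lay between the sexes on its sex chromosomes. The scanner software's own measure of noise, the SD of differences between adjacent log ratios, was 0.20 and 0.21 for ICSI replicates 1 and 4 and 0.17 for natural replicate 2, against 0.14 to 0.15 on the other 7 arrays. Natural replicate 3, labelled male, lay between the sexes, with a mean log2 ratio of -0.033 over X probes and -0.0072 over Y probes. The other males lay at -0.61 to -0.55 for X and 0.75 to 0.82 for Y. Of the members, 1472 were well above background in both channels on all 10 arrays. The probes are 46 to 60 bases long, and their median spacing was 9.98 kb, with 1 widest gap of 93.0 kb.

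The mean of the stretch lay near 0 in every animal. It was 0.0065 ± 0.030 in ICSI-derived and 0.0060 ± 0.034 in natural animals (SD, n = 5 each), and no animal lay outside -0.024 to 0.054. The females were at 0.0061 ± 0.033 (SD, n = 4) and the males at 0.0064 ± 0.032 (SD, n = 6). This difference of -0.00025 was smaller than the spread between animals (exact permutation test, two-sided, p = 0.914). The probes at the bounds had spans of 0.25 to 0.64. The last probe outside on the proximal side spanned -0.014 to 0.23 over the animals and the first inside 0.080 to 0.72, while on the distal side the last inside spanned -0.27 to 0.097 and the first outside -0.27 to -0.012.

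Few members varied strongly between the animals, and the share was that of the genome. A span from the lowest to the highest animal of at least 1 was seen at 14 of 1474 members, or 0.95%, against 1.13% of all autosomal probes. The median span was 0.33 both in the stretch and over all autosomes. Just inside that threshold lay probes with spans of 1.01 and 1.03, and just outside it probes with 0.95 and 0.99. A probe was called sorting where, in addition, the largest gap between animals in order of value was at least 0.4 with at least 2 animals on each side. There were 8 such members, or 0.543%, against 0.53% of autosomal probes.

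The probes next to the 8 sorting members were not variable by the same rule. This isolation was part of how the stretch was found and is given as a description. The single nearest probe on each side, 16 probes in all, spanned 0.13 to 0.63 over the animals with a median of 0.31, near the median of 0.33 over the stretch. The sorting members themselves spanned 1.18 to 3.81. None of the 14 variable members lay next to another along the chromosome. The 5 nearest probes on each side of a sorting member held no variable probe at 8 of 8, against 544 of 855 sorting probes over the autosomes, or 63.6%.

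**Figure D1:**
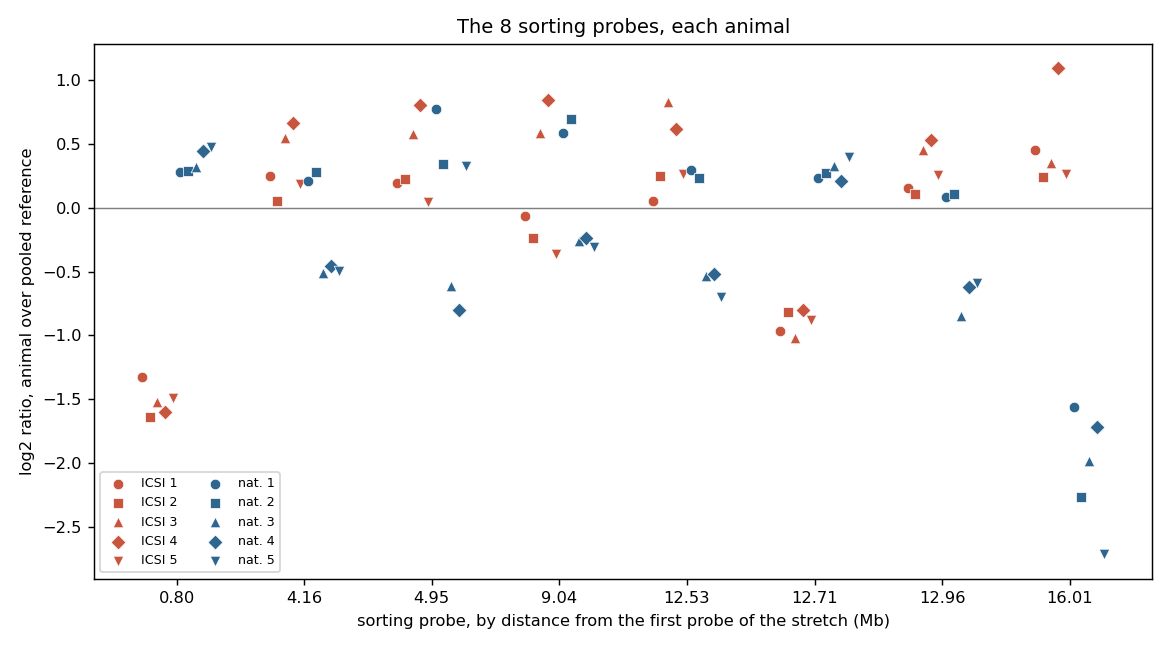
Log2 ratio of each of the 10 animals over the pooled reference (vertical axis) at the 8 sorting probes, in order along the stretch (horizontal axis, Mb from the first member). Each point is 1 animal, red for ICSI-derived and blue for natural. The groups lie wholly apart at 3 probes, and natural replicates 3, 4 and 5 lie below all other animals at another 3.

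At 3 of the 8 sorting members every ICSI-derived animal lay on the other side of the gap from every natural animal. This is the contrast behind the choice of the stretch, so these values are given as a description. Probe A_67_P13692673 (chr5:115807356-115807415) was at -1.33, -1.64, -1.52, -1.60 and -1.49 in ICSI replicates 1 to 5 and at 0.28, 0.29, 0.32, 0.44 and 0.48 in natural replicates 1 to 5. The groups were separated by a gap of 1.61, with SDs of 0.12 and 0.092 within them (n = 5 each). The difference of the means was -1.88, and -1.02 with normexp, another background correction. Probe A_67_P05736790 (chr5:127718236-127718295), 11.9 Mb further on, gave the same placement. Its values were -0.96, -0.82, -1.02, -0.80 and -0.88 in ICSI replicates 1 to 5 and 0.24, 0.27, 0.33, 0.21 and 0.40 in natural replicates 1 to 5. The ICSI-derived mean was -0.90 ± 0.094 and the natural mean 0.29 ± 0.075 (SD, n = 5 each).

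The third of them had the opposite sign. Probe A_67_P13768561 (chr5:131013744-131013803) was at 0.46, 0.24, 0.35, 1.10 and 0.27 in ICSI replicates 1 to 5 and at -1.56, -2.27, -1.98, -1.72 and -2.72 in natural replicates 1 to 5. The natural animals were near the limit of the measurement here. Their Cy5 signal was 50.7 to 107 and well above background on 2 of 5 arrays, against 369 to 663 and 5 of 5 in ICSI-derived animals. The size of this difference depends on the background correction. It was 2.53 with the processed signals and 0.35 with normexp on the median intensities.

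Another 3 sorting members set natural replicates 3, 4 and 5 below the other 7 animals, across the groups. At probe A_67_P05714696 (chr5:119168063-119168122) natural replicates 3, 4 and 5 were at -0.51, -0.46 and -0.49. Natural replicates 1 and 2 were at 0.21 and 0.28, and ICSI replicates 1 to 5 at 0.25, 0.054, 0.55, 0.67 and 0.18. The other 7 animals were not a uniform set: ICSI replicates 3 and 4 were its 2 highest.

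The same order came back 8.37 Mb further along. Probe A_67_P05736368 (chr5:127534965-127535024) was at -0.53, -0.52 and -0.70 in natural replicates 3, 4 and 5, and at 0.30 and 0.23 in natural replicates 1 and 2. ICSI replicates 1 to 5 were at 0.052, 0.25, 0.83, 0.62 and 0.27. Probe A_67_P05737404 (chr5:127969667-127969726) was at -0.85, -0.62 and -0.59 in natural replicates 3, 4 and 5, at 0.088 and 0.11 in natural replicates 1 and 2, and at 0.16, 0.11, 0.45, 0.53 and 0.26 in ICSI replicates 1 to 5. At all 3 probes natural replicates 3, 4 and 5 were the lowest and ICSI replicates 3 and 4 the highest, with the same 5 animals between them.

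The remaining 2 sorting members placed the animals in other ways. At probe A_67_P01202149 (chr5:119953538-119953597) natural replicates 3 and 4 were low, at -0.61 and -0.80, but natural replicate 5 was at 0.33 with the upper animals and natural replicate 1 was at 0.78. ICSI replicates 1 to 5 were at 0.19, 0.23, 0.58, 0.80 and 0.043 and natural replicate 2 at 0.34. This differs in natural replicate 5 from the placement seen 0.785 Mb before it. At probe A_67_P05727593 (chr5:124046858-124046917) 4 animals were high, ICSI replicates 3 and 4 at 0.59 and 0.85 and natural replicates 1 and 2 at 0.58 and 0.70. The other 6 lay between -0.36 and -0.065, ICSI replicates 1, 2 and 5 and natural replicates 3, 4 and 5 among them.

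The 6 variable members that missed the gap rule were of several kinds. The probe at 127141211 followed the order of the 3 probes above with a gap of 0.39. Its values were -0.37, -0.11 and -0.24 in natural replicates 3, 4 and 5, 0.76 and 0.80 in ICSI replicates 3 and 4, and 0.28 to 0.46 in the other 5. The probe at 126270526 had that order turned over, with natural replicates 3, 4 and 5 at 0.60, 0.46 and 0.51 and ICSI replicates 3 and 4 at -0.29 and -0.51. The probe at 130871321 parted the groups, at -1.19 to -0.082 in ICSI-derived and 0.40 to 1.02 in natural animals. Its largest gap fell elsewhere, because ICSI replicate 4, on a noisy array, stood alone at -1.19. The probes at 115043234, 115222543 and 124333147 spanned 1.03, 1.39 and 1.01 with no gap that set at least 2 animals apart by 0.4.

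Taken as pairs, the sorting members did not all sort the animals alike. Of the 28 pairs, 9 placed at least 9 of the 10 animals on the same sides, in either orientation, and 6 of these placed all 10 alike. Those 9 pairs are the 3 among the group-parting probes and the 6 among the probes at 119168063, 119953538, 127534965 and 127969667. Of the 7 consecutive pairs, 1 placed at least 9 animals alike. The 2 recurring placements are interspersed along the chromosome. Between 127534965 and 127969667, a distance of 0.435 Mb, lies the group-parting probe at 127718236, and it shares 8 of 10 placements with each of them.

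For comparison, the same was counted over isolated sorting probes elsewhere, those with no variable probe among the 5 on each side. On other autosomes, at distances of 0.2 to 18 Mb, 59.9% of 2448 such pairs placed at least 9 animals alike. Between different autosomes 4.08% of 138659 pairs did. The 32.1% in the stretch lies between these shares. Pairs share probes, so they are not independent, and no test was made. The count of consecutive pairs depends on single animals. It was 2 without ICSI replicate 2 or 4, 5 without natural replicate 1 or 2, and 0 without natural replicate 3, with 1 animal allowed to differ each time. Without the 3 noisiest arrays it was 7. The 2 recurring placements differ in natural replicates 1 and 2 alone, so without either of these they differ in 1 animal and count as alike.

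Beyond the 8 sorting members, the 2 recurring placements were looked for at all 1474 members, whatever their span, with a gap of over 0.1 between the sets of animals. The sets were read from the sorting members, so their counts are descriptions too. Together the 2 placements were found at 27 members, 1 of which, at 127520598, fits both. The other 1447 members showed neither.

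**Figure D2:**
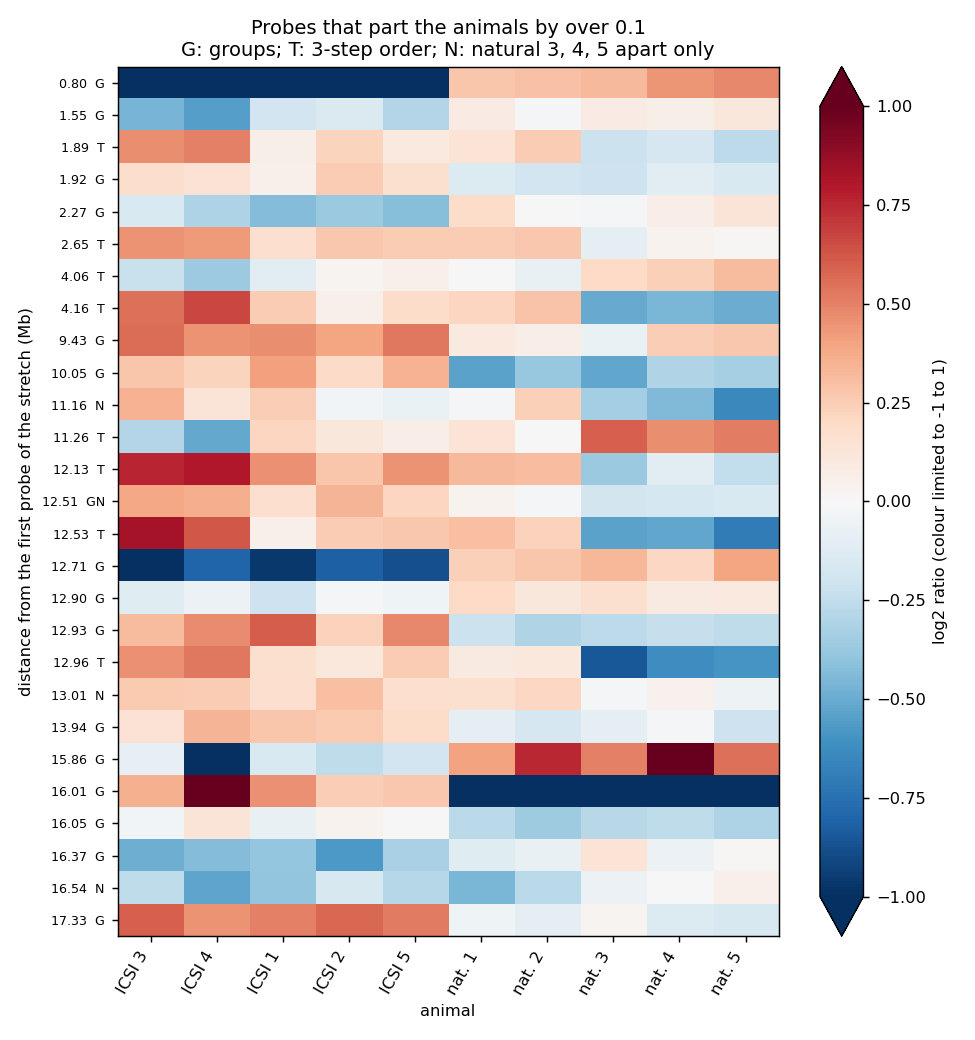
Log2 ratio (colour, limited to -1 to 1) of the 27 members with either recurring placement (rows, in order along the stretch, Mb from the first member) in each of the 10 animals (columns). The letters mark the placement of a row, and rows with the groups apart (16) and rows with natural replicates 3, 4 and 5 apart (12) are interspersed along the stretch, with runs of either.

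The groups lay apart by over 0.1 at 16 members, or 1.09%, against 0.0421% of autosomal probes. With normexp they did so at 7 members, against 0.0347% of autosomal probes. Without the 3 noisiest arrays they did so at 23 members, against 0.44% of autosomal probes, and without ICSI replicate 3 at 16, against 0.125%. ICSI-derived animals were higher at 9 of them and lower at 7. They ran from 115807356 to 132339383, over 16.5 Mb, with spans from 0.41 to 3.81. The limma fit over all autosomal probes called 6 members, all among these 16, 4 higher and 2 lower in ICSI-derived animals. The share called over the autosomes was 0.0198%, or 0.0155% higher and 0.00434% lower. Nothing is read from that count, since it chose the stretch. It was 3 within slide 1, 12 within slide 2 and 4 with normexp. At those settings 37, 226 and 22 of 161460 autosomal probes were called. Each fit within a slide had 2 animals per group, which left 2 residual degrees of freedom on slide 1 and 1 on slide 2. On slide 2 it set ICSI replicates 3 and 4 against natural replicates 3 and 4. These lay at opposite ends of the other recurring placement as well, so the 2 placements are mixed in that count. Besides the 3 sorting probes, the called members lay at 125053730, 127936228 and 132339383.

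These 3 had smaller steps, with SDs within a group of 0.033 to 0.15 (n = 5 each). The probe A_53_P124387 (chr5:125053730-125053789) was at 0.41, 0.19, 0.27, 0.22 and 0.35 in ICSI replicates 1 to 5 and at -0.53, -0.38, -0.52, -0.30 and -0.33 in natural replicates 1 to 5. The probe A_67_P05737321 (chr5:127936228-127936286) was at 0.23 to 0.61 in ICSI-derived and at -0.30 to -0.21 in natural animals. Its difference of 0.67 fell to 0.33 with normexp. The probe A_67_P13774547 (chr5:132339383-132339442) was at 0.45 to 0.60 in ICSI-derived and at -0.16 to 0.025 in natural animals. The groups did not overlap at any of the 3.

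The 10 group-parted members that were not called had gaps of 0.11 to 0.49. The 2 clearest after the probe at 130871321 lay at 131380418, with -0.57 to -0.32 in ICSI-derived and -0.12 to 0.13 in natural animals, and at 131058065, with -0.072 to 0.13 and -0.35 to -0.25. Over the whole stretch the groups did not overlap at 27 members with any gap, or 1.83%, against 0.51% of autosomal probes.

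Natural replicates 3, 4 and 5 lay apart from the other 7 animals by over 0.1 at 12 members, or 0.814%, against 0.0638% of autosomal probes. They were the lower set at 9 and the higher set at 3. Natural replicate 3 is the animal whose sex chromosomes lay between the sexes. Without it the remaining 2 lay apart at 28 members, with a background of 0.63%. The count was 18 without natural replicate 4 and 19 without natural replicate 5, with backgrounds of 0.248% and 0.245%. Without the 3 noisiest arrays it was 27, with a background of 0.528%.

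At 8 of these 12 members the animals fell into 3 steps, natural replicates 3, 4 and 5 at 1 end, ICSI replicates 3 and 4 at the other, and the same 5 animals between, with both gaps over 0.1. Natural replicates 3, 4 and 5 were lowest at 6 and highest at 2. Of these 8, 3 are the sorting members the order was read from, and the other 5 are further probes with spans of 0.55 to 1.17. The smallest gaps were at the probe at 119063560, where natural replicates 3, 4 and 5 were at 0.20 to 0.32, the 5 between at -0.11 to 0.052 and ICSI replicates 3 and 4 at -0.36 and -0.22. At the probe at 116898835 the 3 sets lay at -0.26 to -0.17, 0.057 to 0.25 and 0.47 to 0.50. At the probe at 117657871 they lay at -0.10 to 0.032, 0.17 to 0.27 and 0.43 to 0.45.

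The 3-step order with both gaps over 0.1 was seen at 8 autosomal probes in all, or 0.00495%, and these are the 8 in the stretch. It was met by 0 of 8700 probes on the rest of chromosome 5 and by 0 of 151286 on other autosomes. Since the order was read from 3 of these 8 members, its absence elsewhere is a description only. With any gap the order was met by 15 members, 4 probes on the rest of chromosome 5 and 92 on other autosomes. That it was met in the stretch alone depends on the background correction and on single animals. With normexp 7 members and 8 autosomal probes in all met the order. Without any 1 animal between 8 and 11 members met it, but without ICSI replicate 3 so did 21 autosomal probes in all, and without natural replicate 3 so did 15.

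The animals at the ends of the 3-step order were of both labelled sexes. ICSI replicates 3 and 4 and natural replicates 3 and 4 shared slide 2 and lay at opposite ends of it. All 4 animals of slide 1, ICSI replicates 1 and 2 and natural replicates 1 and 2, lay in the middle set. Within each group the split is also a slide split. Natural replicates 1 and 2 were on slide 1 and natural replicates 3, 4 and 5 on slides 2 and 3. ICSI replicates 3 and 4 were on slide 2, ICSI replicates 1 and 2 on slide 1 and ICSI replicate 5 on slide 3. Within either group slide and placement cannot be told apart. ICSI replicate 3 is labelled male and ICSI replicate 4 female, natural replicate 3 male and natural replicates 4 and 5 female. The noisy arrays had a placement of their own: ICSI replicates 1 and 4 lay apart from the others by over 0.1 at 38 members, or 2.58%, against 2.56% of autosomal probes. Without the 3 noisiest arrays the 3-step order was met by 14 members and the background was 0.0347%.

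Along chromosome 5 the placements were not spread evenly. This is a description only, since the group contrast chose the stretch and the other sets were read from its sorting members. The 8 members with the 3-step order lay between 116898835 and 127969667, over 11.1 Mb. They came in 2 clusters, 4 probes up to 119168063 and 4 from 126270526 on, with 7.10 Mb and 577 members between them that did not show it. Neither placement was found at the 427 members between 119168063 and 124437304. That gap holds the sorting members at 119953538 and 124046858, which placed the animals in other ways. Outside the stretch, the groups lay apart by over 0.1 at 1 of 8700 probes of chromosome 5, at 143077306. Natural replicates 3, 4 and 5 did so at 6, of which the nearest, at 113478336 and 114476880, lay just proximal to the stretch.

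**Figure D3:**
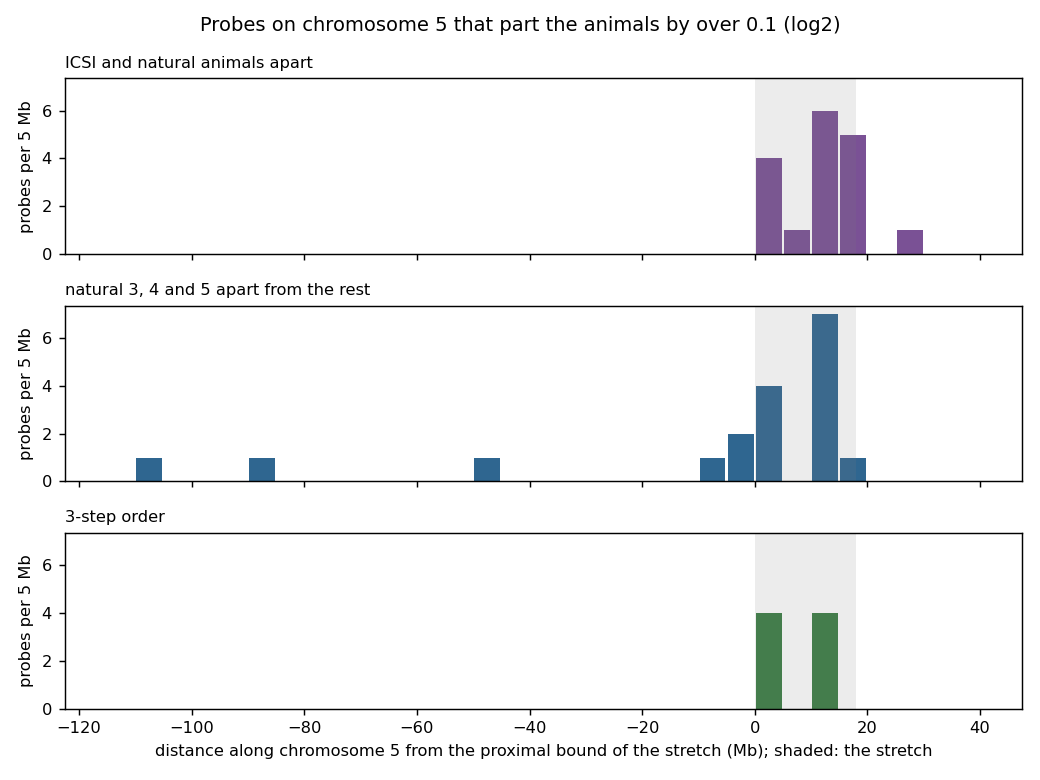
Number of probes per 5 Mb of chromosome 5 (vertical axis) that part the animals by over 0.1, for the groups, for natural replicates 3, 4 and 5, and for the 3-step order, against the distance from the proximal bound of the stretch (horizontal axis, Mb). The shaded span is the stretch, which holds 16 of 17, 12 of 18 and 8 of 8 of these probes, and 1474 of the 10174 probes of chromosome 5. The stretch was chosen by the group contrast and the other sets were read from its members, so these counts are a description only.

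At the sorting members the animals' channel varied more than the reference channel. The Cy3 channel holds the same pool on all arrays. Both channels enter the ratio by which these members were picked, so their spreads are a description. The SD over the 10 arrays of the centred log2 signal was 0.42 to 1.40 in Cy5 and 0.044 to 0.11 in Cy3. The median over all members was 0.097 in Cy5 and 0.073 in Cy3. Cy5 varied more at 8 of 8 sorting members, by a factor of 4.59 to 13.2 with a median of 8.81. It also varied more at 77.5% of all members and at 75.5% of autosomal probes. Of the 855 sorting probes over the autosomes 99.4% had the larger spread in Cy5, by a median factor of 6.13. At the 6 called members the factor was 4.31 to 13.2.

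**Figure D4:**
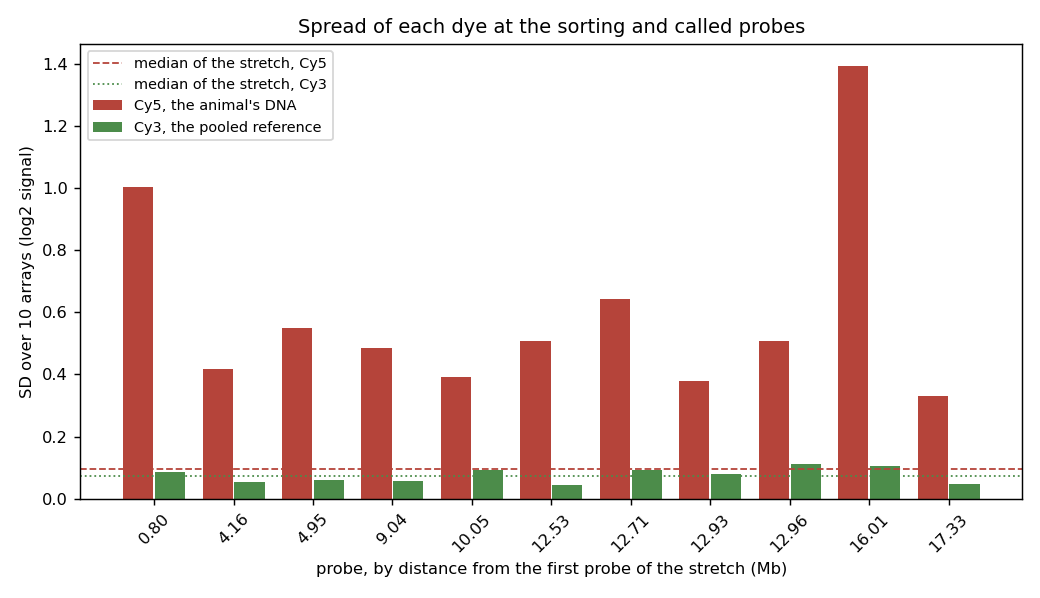
SD over the 10 arrays of the centred log2 signal (vertical axis) at the sorting and called members (horizontal axis, Mb from the first member), red for Cy5, the animal's DNA, and green for Cy3, the pooled reference. Dashed and dotted lines are the medians of the stretch, 0.097 and 0.073, and Cy5 exceeds Cy3 at every probe shown.

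Sex, a contrast the choice of the stretch did not use, called 0 of 1474 members in the same limma fit. At an unadjusted p under 0.05 there were 35, or 2.37%, against 2.91% of autosomal probes. Over all autosomes the fit called 6 probes, or 0.00372%, with 0.000619% higher and 0.0031% lower in females. The interaction of group and sex called 0 members and 0 autosomal probes. At an unadjusted p under 0.05 there were 70 members, or 4.75%, against 3.80% of autosomal probes. With 2 labelled females per group, and 1 labelled male that lay between the sexes on X and Y, differences of this kind can be missed.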

How the data were processed

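The deposited scanner files hold spot intensities, 1 file per animal. Feature Extraction 10.7.3.1 made them, per the file headers; the processed intensity has background taken off and a dye factor applied, and the median intensity used with normexp (offset 50) has neither. The deposited value table and LogRatio column hold log10 ratios of Cy5 over Cy3, identical to each other. The submitters' processing notes name Partek 6.5. Coordinates are mm9, named in 6 of 10 file headers, and the other 4 files hold the same probe positions.

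Control spots were left out, spots were averaged by probe, and log2 of Cy5 over Cy3 was centred on each array's autosomal median. Probes were fitted with limma 3.58.1 in R 4.3.3 (group and sex, two-sided, Benjamini-Hochberg adjustment over 161460 autosomal probes at 0.05), checked on simulated data. Python 3.11.15, numpy 2.4.6, pandas 2.3.3 and scipy 1.17.1 were used otherwise. Probes are named by rule where they are called sorting members, sorting members of the widest span or commonest placement, or next to the bounds. Further probes in the text were picked with their values in view. The members, placements and lists were chosen with earlier results of these data known. Genes and probe sequences were not analysed here. Replicates are separate animals with 1 array each, and their number limits the precision.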

Additional observations from a re-analysis of the deposited data

Results flagged for a closer look

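Of 24 sets of 5 values, the 2 groups at the mean of the stretch and at the sorting and called probes, 1 held a value far from the others, and chance gives about 1 in 20. At the probe at 131013744, ICSI replicate 4 was at 1.10, against 0.244 to 0.458 in the other ICSI-derived animals. That array is one of the noisiest, and the part of noise in this value was not tested.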

How the results depend on the processing

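Counts of members moved with the thresholds that define them. Variable members were 25 with normexp, 36 at a span of 0.8 and 5 at 1.5. Sorting members were 4 at a span of 1.5 and 17 at a span of 0.6 with a gap of 0.3, and members with the commonest placement were 5 at a span of 0.8 and 6 at that last setting. The autosomal shares at these settings are not given, so these counts are not set against the genome. Consecutive members placed alike were 2 when centred on all probes, with normexp, at a span of 0.8 and at a gap of 0.3. They were 7 without the 3 noisiest arrays, where 1 of the 7 animals left was allowed to differ. They were 5 at a span of 0.6 with a gap of 0.3. They were 0 at a gap of 0.6, with at least 3 animals on the smaller side, or with all animals required alike. Without 1 replicate they were 0 to 5. The group placement was met by 7 members with normexp, against 0.0347% of autosomal probes. With any gap it was met by 27 members (1.83%, against 0.502% on other autosomes). With a gap over 0.2 it was met by 7 (0.475%, against 0.0172%). Natural replicates 3, 4 and 5 lay apart at 27 members without the 3 noisiest arrays (0.528% of autosomal probes). They did so at 46 with any gap (3.12% of members, against 1.20% on other autosomes). With a gap over 0.2 it was 7 (0.475%, against 0.00859%), and without 1 replicate 12 to 28. The 3-step order was met by 14 members without the 3 noisiest arrays (0.0347% of autosomal probes). With normexp it was met by 7 members and by 8 autosomal probes in all (0.00495%). With any gap it was met by 15 members (1.02%, against 0.0608% on other autosomes). With a gap over 0.2 it was met by 5 members and by 0 probes on other autosomes. Called members were 3 within slide 1 and 12 within slide 2, with 2 animals per group on each. There 37 and 226 of 161460 autosomal probes were called. The female minus male mean was 0.0092 without the 3 noisiest arrays and -0.011 to 0.0099 without 1 replicate, being positive at 0.0064 without ICSI replicate 1, 0.0084 without ICSI replicate 5, 0.0092 without natural replicate 2 and 0.0099 without natural replicate 5. The cause was not tested. The placement rules, and the span of 0.6 with a gap of 0.3, were chosen after seeing the data. Replicate numbers did not pair the animals (correlations of -0.28 to 0.15). With the replicate number as a block 6 members were called, as without it. Over all 161460 autosomal probes 25 were called with this block and 32 without it. Signal is limiting at the probe at 131013744, where the natural animals' Cy5 signal was well above background on 2 of 5 arrays.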
